A study of Mus musculus with 8 samples.

Results

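Open chromatin regions that lay over protein-coding sequence, away from promoters, were described here in mouse hepatocytes before and after partial hepatectomy (PHx). Each of 8 peak lists was reduced to its 50000 strongest distinct intervals (the kept intervals), these were merged across libraries into 73710 regions, and a region counted as a coding exon region if it lay more than 1 kb from every annotated transcription start site (TSS) and overlapped a coding segment of a protein-coding gene by at least 50 bp. The rule gave 3752 coding exon regions, 5.09% of all regions, in 3122 of 21911 protein-coding genes (14.2%). The other regions were promoters within 1 kb of a TSS (17649), introns (28181), intergenic sequence (21632) and exonic sequence with less or no coding overlap (2496). Accessibility came from bulk ATAC-Seq, where Tn5 transposase cuts and tags DNA left free by nucleosomes. The nuclei came from hepatocytes released from liver by collagenase perfusion. All groups used C57BL/6 mice of 10 to 12 weeks on a normal diet, with no transgene or deletion named in the labels. The study's methods name the mice as male C57BL/6J and give a slightly younger age at surgery. The 4 groups were undamaged liver (0 h) and liver collected 48, 72 or 96 h after PHx, an operation that takes out most of the organ, and each had 2 libraries.

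Protein-coding exons carry the amino acid code, and most of them are short segments between much longer introns. Some also hold binding sites for transcription factors or for CTCF, the zinc finger protein that anchors chromatin loops, so that an open exon can be part of an enhancer or a promoter as well as of a transcript. Hepatocytes are kept in their differentiated state by factors such as HNF4, HNF1, FOXA and C/EBP, and after PHx they leave the resting state, divide and regain the lost mass while they continue to make plasma proteins and to handle bile acids, lipids and drugs.

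The lists held 105206 to 154577 distinct intervals, and the −log10 p of the last kept interval ranged from 8.05 (48 h replicate 1) to 15.2 (0 h replicate 1). Read depth is unknown, so the strength of a region is given as a within-list percentile, the percent of the distinct intervals of a list that were weaker. The kept intervals started at percentile 52.5 to 67.7, depending on the list. The promoters of 6 hepatocyte genes (Alb, Ttr, Apoa1, Serpina1a, Hnf4a and Cps1) were each kept in at least 1 library, with Hnf4a in all 8 and Alb in 1. The promoters of the lymphocyte genes Ptprc and Cd3e were listed in none. Of 12 promoters of endothelial, Kupffer, stellate and biliary genes, Lrat, Reln and Epcam were kept in all 8 libraries, Sox9 in 7, Kdr in 1 and the others in none. Fewer cells with an open region and less accessible DNA per cell cannot be told apart in bulk samples. For the undamaged liver and the earliest time point after PHx, the study describes replicates as separate hepatocyte preparations from separate mice. The labels do not tie a library to a mouse at any time point, so p-values measure the spread between these libraries, which may be technical.

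The first set of sequences shows what the strongest coding exon regions looked like at their summits, the point of highest signal. Each is 120 bases of the mm10 assembly on the coding strand, 5′ to 3′, with motif matches in capitals and positions counted from 1 at the 5′ end. The windows are chr7:4836410-4836529 in Shisa7 (minus strand), chr8:84639528-84639647 in Cacna1a (plus strand) and chr16:90779930-90780049 in Urb1 (minus strand). The Shisa7 and Cacna1a windows were coding throughout and held no motif match, whereas the Urb1 window lay in the intron beside its exon and repeated an SP/KLF match (GGGCGG at positions 4, 71 and 104) and a FOXA match (TGTTTAC at positions 54 and 87).
Shisa7: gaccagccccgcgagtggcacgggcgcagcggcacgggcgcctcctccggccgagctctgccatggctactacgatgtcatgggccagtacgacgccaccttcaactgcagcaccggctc
Cacna1a: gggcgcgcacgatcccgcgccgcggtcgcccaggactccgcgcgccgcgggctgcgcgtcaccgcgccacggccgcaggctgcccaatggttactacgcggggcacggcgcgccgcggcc
Urb1: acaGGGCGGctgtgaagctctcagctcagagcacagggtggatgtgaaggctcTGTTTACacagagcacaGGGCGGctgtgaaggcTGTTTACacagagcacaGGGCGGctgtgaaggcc

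The next sequences are summits of regions that entered or left the kept intervals at 48 h. Depp1 (chr6:116651923-116652042, plus strand) and Amn (chr12:111275368-111275487, plus strand) entered, and Abca8a (chr11:110038004-110038123, minus strand) and Dock8 (chr19:25089871-25089990, plus strand) left. The Depp1 and Amn windows were coding throughout, and Amn held an E-box (CAGCTG at position 86). In Dock8 coding sequence began at position 21. The Abca8a window was intronic, with a FOXA match (TGTTTAC at position 44).
Depp1: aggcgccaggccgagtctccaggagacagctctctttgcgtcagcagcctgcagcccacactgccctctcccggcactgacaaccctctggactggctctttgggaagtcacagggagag
Amn: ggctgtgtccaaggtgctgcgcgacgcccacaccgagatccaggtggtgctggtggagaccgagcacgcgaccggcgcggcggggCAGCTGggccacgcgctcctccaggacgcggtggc
Abca8a: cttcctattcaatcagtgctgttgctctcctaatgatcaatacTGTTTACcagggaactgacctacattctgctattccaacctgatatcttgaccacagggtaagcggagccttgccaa
Dock8: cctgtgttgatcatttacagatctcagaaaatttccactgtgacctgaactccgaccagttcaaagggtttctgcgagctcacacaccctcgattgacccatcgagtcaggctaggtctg

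The last sequences belong to regions that entered by 96 h or in every PHx library, and show an open stretch of pure coding sequence and CTCF matches in an intron and at an exon edge. Arid1a (chr4:133680453-133680572, minus strand) was coding throughout, with no motif match. In Pex7 (chr10:19894152-19894271, minus strand) coding sequence ended at position 22, and the intron held a CTCF match at position 84 between STAT matches at positions 39 and 111. In Cog3 (chr14:75722144-75722263, minus strand) coding sequence began at position 73, inside a CTCF match that started at position 66, and an SP/KLF match at position 74 overlapped it.
Arid1a: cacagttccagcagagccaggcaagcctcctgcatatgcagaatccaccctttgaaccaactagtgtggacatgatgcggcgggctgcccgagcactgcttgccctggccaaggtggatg
Pex7: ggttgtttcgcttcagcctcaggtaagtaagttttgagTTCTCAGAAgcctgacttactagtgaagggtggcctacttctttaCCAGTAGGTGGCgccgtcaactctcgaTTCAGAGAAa
Cog3: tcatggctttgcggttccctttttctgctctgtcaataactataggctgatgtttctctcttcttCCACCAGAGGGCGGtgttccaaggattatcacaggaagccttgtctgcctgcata

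Most coding exon regions were wider than the coding segment they covered. Their median width was 674 bp (150 to 4176), and the median overlap with the coding segment was 137 bp (50 to 1880), which left a median of 23.9% of a region as coding sequence. In 2588 regions (69.0%) a whole coding segment lay inside the region, in 1028 (27.4%) region and segment crossed at an edge, and in 136 (3.62%) the region lay inside a segment. Only 3 regions had both edges within 20 bp of the ends of the segment. The main segment was an internal coding exon in 2898 regions (77.2%), the last in 653, the initial in 134 and the only coding exon of a gene in 67. A further coding segment was held by 632 regions (16.8%). The widest region (chr9:78473325-78477500) covered the last coding exon of Mto1, which encodes a mitochondrial tRNA-modifying protein, and the region with most coding bases (chr8:4212812-4214765) covered 1880 bp of Prr36. The median distance to a TSS was 10506 bp, with 297 regions at 1 to 2 kb, 679 at 2 to 5 kb, 1741 at 5 to 20 kb and 1035 beyond 20 kb. A wider set of annotated starts (all GENCODE and RefSeq transcripts) placed 1018 regions (27.1%) within 1 kb of some TSS. Among the regions given here with coordinates, these were the regions at Shisa7, Cacna1a, Fgb, Bmp1, Abcb4, Abca4, Apold1, Nr2f6, Cdk1, Brdt, Kdm4b, Itga2b, Celsr3, Celsr2, Cdh23, Reln, Stab1, Stab2, Amn, Psma6, Phc2, Ltbr, Exph5, Gmeb2, Slc27a5, 4930402H24Rik and Hjurp, and among those given without coordinates Nat14 and Bmpr2 were such regions.

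The summit lay in coding sequence in 1255 regions (33.4%) and outside it in the other 2497. Between 2484 and 2708 of the 3752 regions were present per library (66.2% to 72.2%), and 3407 to 3681 overlapped an interval of the full list. All 8 libraries held 1481 regions (39.5%), against 28.1% of intronic, 31.6% of intergenic and 65.4% of promoter regions, and close to the 38.7% of all regions. In 1 library alone 472 were found (12.6%, against 16.4% of all regions). Wider regions reach 50 coding bases more easily, and the part of width in these shares was not tested.

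Coding bases were more often open than the intronic bases around them. Of the coding bases over 1 kb from every TSS, 1.52% ± 0.157 (SD, n = 8 libraries) lay in kept intervals, against 0.966% ± 0.0971 of intronic and 0.519% ± 0.0486 of intergenic bases. Coverage of coding bases was 1.54% and 1.45% before PHx, 1.37% and 1.60% at 48 h, then 1.53% and 1.76% at 72 h, with 1.65% and 1.26% at 96 h (replicates 1 and 2). The ranges of the time points overlapped. Coverage exceeded that of intronic bases in 8 of 8 libraries, by 0.556 ± 0.0713 percentage points or 1.58-fold (exact sign-flip test over libraries, two-sided, adjusted p = 0.00881 over 44 comparisons). The unadjusted p was 0.00781, the smallest that 8 libraries can give, and since libraries share most regions it measures how regular a difference is over libraries. Against intronic bases within 500 bp of a coding segment, covered to 1.05% ± 0.121, the difference was 0.476 ± 0.0523 percentage points (1.46-fold, higher in 8 of 8, exact p = 0.00781). The kept intervals of a library differ in total length, and coverage of all classes moved with it.

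**Figure D1:**
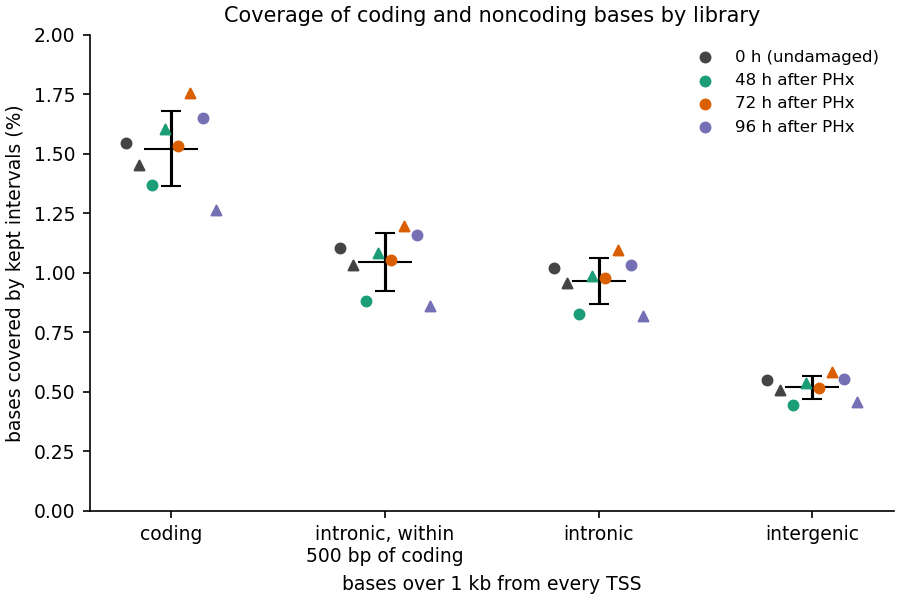
Percent of bases covered by kept intervals (vertical axis) for coding, intronic near a coding segment, intronic and intergenic bases over 1 kb from every TSS. Circles are replicate 1 and triangles replicate 2 of each time point, and bars give mean ± SD over 8 libraries: coding bases averaged 1.52% and intronic bases 0.966%.

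The excess over introns was found at every distance from a TSS and was largest near one. At 1 to 2 kb from a TSS 2.95% ± 0.392 of coding and 1.42% ± 0.151 of intronic bases were covered, a mean ratio of 2.08. The ratio was 1.71 at 2 to 5 kb, 1.25 at 5 to 20 kb and 1.38 beyond 20 kb, with coding bases higher in 8 of 8 libraries each time (exact adjusted p = 0.00781 over the 4 distances). Single coding exons were covered to 2.86% ± 0.436, initial exons to 2.72% ± 0.24, last exons to 2.16% ± 0.203 and internal exons to 1.24% ± 0.135. By length, coverage was 1.11% ± 0.126 for segments under 100 bp, 1.29% ± 0.151 between 100 and 200 bp, 1.63% ± 0.162 between 200 and 500 bp, 2.49% ± 0.184 between 500 and 1000 bp and 1.81% ± 0.234 for segments of 1000 bp or more. Internal exons of every library were thus below the lowest value of the other kinds (1.42% against 1.86%). These values describe bases, and differences between exon kinds were not tested.

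Summits were denser over exon centres than beside them. Around 158019 coding segments more than 3 kb from a TSS, kept intervals had 25.7 ± 0.703 summits per Mb within 100 bp of the segment centre, 22.6 ± 0.75 at 300 to 600 bp and 24.0 ± 0.913 at 1500 to 2000 bp (SD, n = 8). The centre exceeded the far flank by 1.63 ± 0.798 summits per Mb in 8 of 8 libraries (exact p = 0.00781), and the near flank fell below the centre by 3.08 ± 0.66 in 8 of 8 (exact p = 0.00781). The profile therefore had a peak at the exon with a shallow trough on either side.

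**Figure D2:**
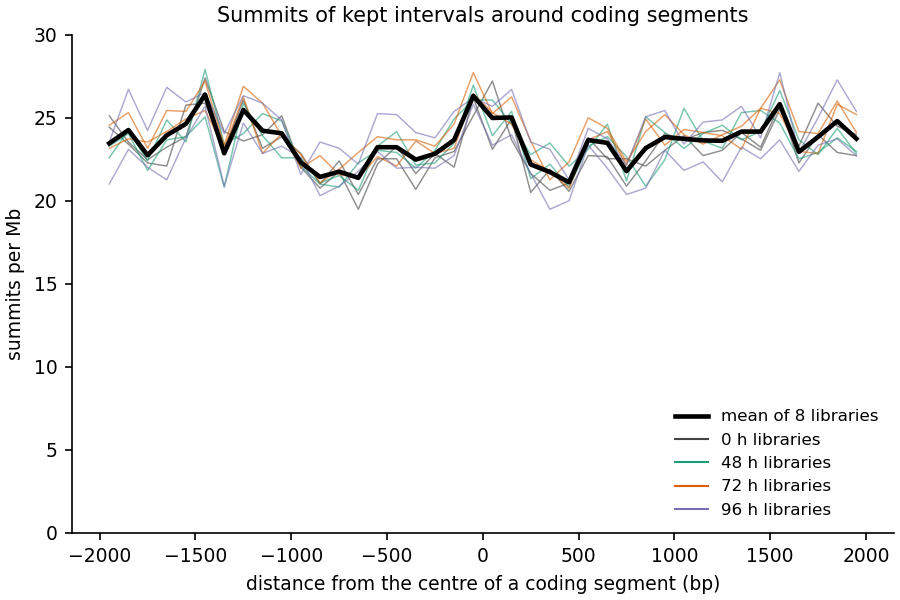
Summits of kept intervals per Mb (vertical axis) by distance from the centre of a coding segment in bp (horizontal axis). Thin lines are the 8 libraries, coloured by time point, and the thick line is their mean, which was 25.7 within 100 bp of the centre and 22.6 at 300 to 600 bp.

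Kept intervals on coding exon regions ranked higher than those in introns, which is given as a description, since rank had set which intervals were kept and the overlap rule favours wide intervals. Their mean percentile among the kept intervals of a library was 47.1 ± 1.25, against 42.8 ± 0.602 for intronic intervals (higher in 8 of 8 libraries) and 45.1 ± 0.522 for intergenic intervals (higher in 7 of 8). The exception was 96 h replicate 2, where coding exon intervals averaged 45.0. The 2 scales of strength did not run in parallel. Median fold enrichment of signal over the local background was 8.03 ± 0.939 on coding exon regions, above the 7.72 of introns in 8 of 8 libraries, but below the 8.37 of intergenic intervals in 8 of 8. Coding exon intervals had a median width of 494 bp, against 449 bp in introns and 446 bp between genes.

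The DNA under coding exon summits was richer in G and C. The 200 bp around the summit held 53.9% ± 0.328 G or C, against 49.7% in introns and 49.8% between genes, and the ratio of observed to expected CpG was 0.337 ± 0.00498 against 0.232 and 0.259 (8 of 8 libraries in each comparison, exact adjusted p = 0.00881). Both stayed below the promoter intervals, at 63.8% and 0.697. Members with a summit in coding sequence averaged 56.7% G or C and a CpG ratio of 0.453, against 52.0% and 0.28 for those with a summit outside it. A share of 24.1% of the former, and 6.41% of the latter, had over 50% G or C and a CpG ratio over 0.6, the usual mark of a CpG island. Members within 1 kb of a TSS in the wider set averaged 55.6% G or C and a CpG ratio of 0.376. The others averaged 52.8% and 0.324, and this split was not tested.

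Matches to 16 motifs were counted in the same windows on both strands. The letters searched were TGANTCA for AP-1, TGTTTAC for FOXA, CAAAGTCCA for HNF4, GTTAATNAT for HNF1, TTGCNNAA for C/EBP, TTCNNNGAA for STAT, CAAGGTCA for the extended nuclear receptor site, CACGTG and CAGCTG for 2 E-boxes, CCGGAAG for ETS, GGGCGG for SP/KLF, AANATGGCG for YY1, ACATTCC for TEAD and CCAATCA for NFY, with CTCF and NRF1 searched by their longer motifs. Among all regions, 6.95% held a CTCF match, 7.88% AP-1, 4.87% FOXA, 1.36% HNF4, 1.76% HNF1, 13.2% C/EBP, 5.52% STAT, 1.59% the extended nuclear receptor site, 3.22% CACGTG, 14.4% CAGCTG, 3.27% ETS, 16.6% SP/KLF, 0.0841% NRF1, 0.791% YY1, 2.8% TEAD and 3.05% NFY. A match is a run of letters and not a bound site.

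Against introns, 7 motifs were more frequent and 8 less frequent on coding exon regions, each in 8 of 8 libraries (exact adjusted p = 0.00881). SP/KLF letters, the GC box of many promoters, were found in 12.1% ± 0.477 of coding exon windows, 6.13% of intronic and 7.6% of intergenic windows. CTCF matches were found in 10.96% ± 0.698, 7.47% and 11.3%, so that coding exon regions exceeded introns by 3.49 ± 0.331 percentage points and differed from intergenic regions by −0.315 ± 0.228, both in 8 of 8 libraries. The E-box CAGCTG was found in 17.8% against 15.8% in introns, CACGTG in 3.65% against 2.84%, ETS in 2.04% against 1.06% and YY1 in 0.395% against 0.239%. The NRF1 share of 0.0376% rested on 1 coding exon region, and its difference from introns did not pass with 25000 intervals (exact adjusted p = 0.0703) or 400 bp windows (0.445). Of the hepatocyte factors, C/EBP letters were less frequent (12.8% against 15.5%), as were FOXA (5.17% against 6.21%) and HNF1 (1.5% against 2.44%). HNF4 letters were found in 1.64% ± 0.119 of coding exon, 1.57% of intronic and 1.66% of intergenic windows, with differences of 0.0646 ± 0.179 and −0.023 ± 0.151 (exact adjusted p = 0.312 and 0.727). The difference from introns was 0.317 with 25000 intervals per library (exact adjusted p = 0.00977) and 0.561 for summits in a coding segment (exact adjusted p = 0.00873). AP-1, the Fos and Jun site, was less frequent (6.53% against 9.34%), as were STAT (4.18% against 5.63%), TEAD (2.13% against 3.34%), the extended nuclear receptor site (1.35% against 1.8%) and NFY (1.85% against 2.26%). The 44 comparisons with intronic or intergenic regions also took in coverage, GC content, CpG ratio, rank, fold enrichment and width, and 41 had an adjusted p under 0.05. Those of rank, fold enrichment and width are descriptions, since rank had set which intervals were kept and the overlap rule favours wide ones. GC content moved with the motif shares, and its part in them was not tested.

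**Figure D3:**
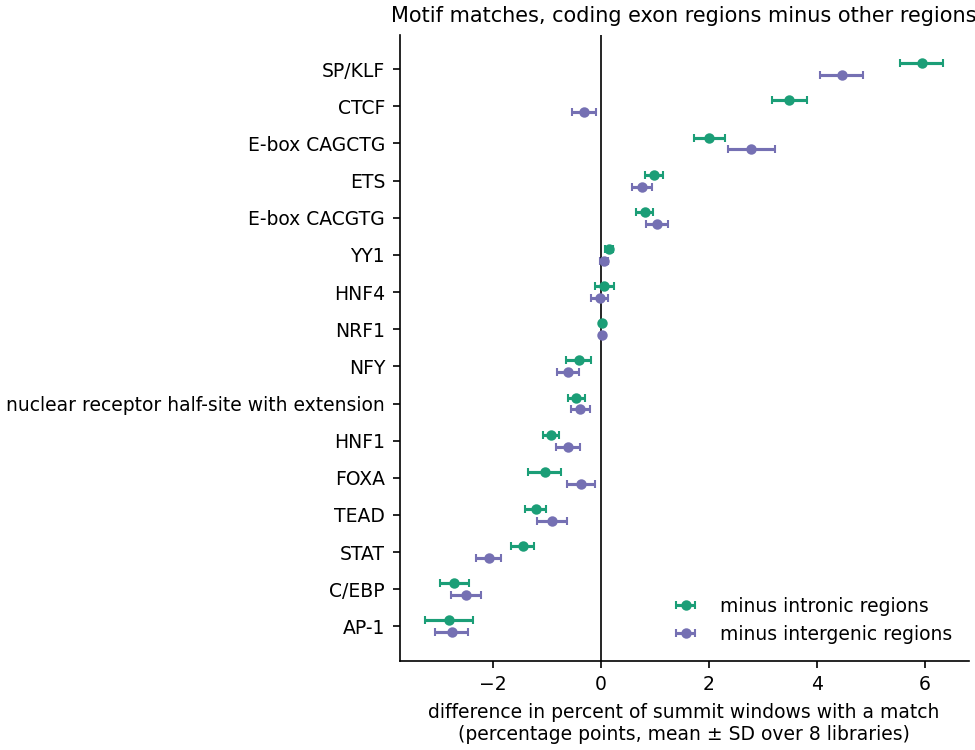
Difference in the percent of 200 bp summit windows with a motif match, coding exon regions minus intronic (green) or intergenic regions (purple), in percentage points. Points and bars are mean ± SD over 8 libraries, and the SP/KLF difference of 5.94 from introns and the AP-1 difference of −2.81 mark the ends of the range.

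The position of the summit split the coding exon regions by motif. CTCF letters were found at 80 of the 1255 summits in coding sequence (6.37%) and at 284 of the 2497 outside it (11.4%). When members were chosen by a summit in a coding segment alone, which also takes in regions with under 50 bp of coding overlap (1261 in all), the CTCF share was lower than in introns, by −0.255 percentage points (exact adjusted p = 0.234), against 3.49 above introns for all coding exon regions. FOXA letters (2.95% against 5.53%) and HNF1 letters (0.558% against 1.88%) were also rarer at summits in coding sequence. CAGCTG (22.1% against 15.6%), SP/KLF (14.1% against 9.93%) and HNF4 letters (2.07% against 1.36%) were more frequent there. Regions with a coding summit were narrower (593 bp against 712 bp) and were found in all 8 libraries less often (32.6% against 42.9%). These are counts of regions, with no test.

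The strongest coding exon regions ranked near the top of every list. The region at Rax, which encodes a homeobox factor of eye development, covered its last coding exon (chr18:65934719-65935581) and ranked at percentile 99.85 to 99.98, with a fold enrichment of 21.1 to 25.7. The Shisa7 region (chr7:4835949-4836810), over the initial coding exon of a neurotransmitter receptor partner, ranked at 99.2 to 99.9 with a fold enrichment of 21.5 to 28.8. The Cacna1a region (chr8:84638714-84639914), over the last coding exon of a neuronal calcium channel gene, ranked at 99.1 to 99.7 with a lower fold enrichment of 11.9 to 17.8. Both the Shisa7 and the Cacna1a region lay within 1 kb of a TSS in the wider set.

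The summits of the remaining strongest regions lay outside coding sequence, in an intron at Urb1 and in noncoding exon sequence at Lars2. The Urb1 region (chr16:90779462-90780365), at internal coding exon 18 of 39 of a ribosome assembly factor, ranked at 99.1 to 99.9. The Lars2 region (chr9:123461491-123462257), at the last coding exon of the mitochondrial leucyl-tRNA synthetase gene, ranked at 98.9 to 99.98. Parts of both summit windows occur elsewhere in the assembly: 4 of 6 pieces of 20 bases from the Lars2 window were found at up to 7 other places and 2 of 6 from the Urb1 window at 1 place outside it, with 1 of these repeated inside the window, whereas none of the pieces from Shisa7 or Cacna1a were. The part of such copies in the signal was not tested.

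Coding exons of developmental regulators and plasma proteins were covered most among 10 gene lists. Kept intervals covered 4.33% ± 0.721 (SD, n = 8) of the coding bases of developmental regulators, taken by symbol families such as Hox, Sox, Wnt and Tbx, and 3.57% ± 0.486 of those of plasma proteins of hepatocytes. In each library both exceeded the coverage of all coding bases, whose highest value was 1.76%. Nuclear receptors followed at 2.15% ± 0.527, nonparenchymal liver cell markers at 2.0% ± 0.349, metabolism and transport enzymes at 1.56% ± 0.238, extracellular matrix and integrins at 1.38% ± 0.209, cadherins at 1.24% ± 0.175, chromatin regulators at 1.16% ± 0.171, cell cycle genes at 0.923% ± 0.336 and zinc finger proteins at 0.789% ± 0.0479. The middle lists overlapped in their ranges over libraries. No list was tested.

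Counted by gene, plasma proteins led. A coding exon region was held by 20 of 49 plasma protein genes (40.8%), 56 of 150 matrix and integrin genes (37.3%), 34 of 119 chromatin regulators (28.6%), 12 of 50 cell cycle genes (24.0%), 5 of 21 nonparenchymal markers (23.8%), 94 of 467 metabolism genes (20.1%), 43 of 234 developmental regulators (18.4%), 8 of 50 nuclear receptors (16%), 14 of 105 cadherins (13.3%) and 29 of 471 zinc finger genes (6.16%). The share over all protein-coding genes was 14.2%. Longer coding sequences and more exons give a gene more chances to hold a region, and the part of length was not tested.

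Of the 4 strongest regions at plasma protein genes, 3 were broad with a low fold enrichment. At Ahsg, which encodes fetuin-A, a region of 3092 bp (chr16:22898218-22901309) ranked at percentile 92.6 to 98.7 with a fold enrichment of 3.85 to 4.84. The Hpx region, at the gene of the heme carrier hemopexin, was 3171 bp wide (chr7:105590021-105593191) and ranked at 76.7 to 97.2 with a fold enrichment of 3.16 to 4.27. The Fgb region, at the fibrinogen beta chain gene, was 3918 bp wide (chr3:83039674-83043591) and ranked at 84.5 to 96.9 with a fold enrichment of 2.86 to 3.68. All 3 belonged to the 46 coding exon regions wider than 2 kb. The Itih2 region, at the gene of a hyaluronan-binding inhibitor chain, was 839 bp wide (chr2:10094359-10095197) and had a fold enrichment of 4.25 to 10.1.

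In the developmental list the highest ranks went to Wnt10a, a secreted signal (chr1:74802990-74803737, percentile 97.8 to 99.3), the homeobox gene Nkx2-6 (chr14:69174357-69175407, 93.4 to 97.8), the BMP receptor gene Bmpr1b (chr3:141862524-141863314, 88.2 to 98.7) and Bmp1, which encodes a procollagen protease (chr14:70508417-70509253, 86.5 to 98.9). Their summits all lay in coding sequence. The Wnt10a and Nkx2-6 windows had 68.5% and 69.0% G or C and CpG ratios of 0.817 and 0.726. The median coding share of regions in this list was 32.8%, against 23.9% over all coding exon regions.

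Metabolism genes with strong regions included Acsm3, a mitochondrial acyl-CoA synthetase (chr7:119783184-119784008, percentile 96.7 to 98.5), and Abcb4, the exporter of phosphatidylcholine into bile (chr5:8928259-8928868, 95 to 99.4). The summit window of Abcb4 held FOXA and SP/KLF letters. The Abca4 region (chr3:122169347-122170114, 94.6 to 98.7), at the gene of a retinal transporter, held CTCF letters. Apold1 (chr6:134983266-134984336, 97.8 to 99.9) entered this list through its symbol alone and is not a metabolic enzyme.

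Of the nuclear receptors, Ppara, the regulator of fatty acid oxidation, had a region at internal coding exon 2 of 6 (chr15:85786613-85787860). Its percentile was 89.2 and 92.5 before PHx, 76.9 and 75.04 at 48 h, then 87.7 and 74.8 at 72 h, with 87.9 and 78.0 at 96 h. Both 0 h values were above the 6 PHx values, and the log2 difference in fold enrichment was −0.22 ± 0.28 (SE) at 48 h (limma, adjusted p = 0.834). Nr2f6 (chr8:71375387-71376173) ranked at 76.4 to 94.8, Nr2c1 (chr10:94160461-94162631) at 70.4 to 91.8 and Rarb (chr14:16434272-16434779) at 62.6 to 87.1.

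In the cell cycle list, Cdk1, the kinase that drives mitosis, had a region at internal coding exon 4 of 7 (chr10:69341417-69342823). It ranked at percentile 83.8 and 87.2 before PHx, 83.6 and 82.8 at 48 h, then 89.2 and 82.3 at 72 h, with 81.8 and 79.7 at 96 h. Both values at 48 h and both at 96 h lay below the 0 h values, and those at 72 h spanned them. E2f2 (chr4:136186029-136187396) ranked at 76.3 to 85.8, Mcm2 (chr6:88889198-88890194) at 67.9 to 85.8 and Bub1b (chr2:118637959-118638592) at 64.4 to 79.0. The log2 differences in fold enrichment at 48 h ranged from −0.29 at Cdk1 to 0.12 at E2f2, with adjusted p of 0.745 to 0.909 (limma).

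Chromatin regulators with strong regions were Nsd3, a histone methyltransferase gene (chr8:25710150-25710966, percentile 97.9 to 99.5), the testis bromodomain gene Brdt (chr5:107359233-107360335, 91.6 to 97.3), the histone demethylase gene Kdm4b (chr17:56392868-56393788, 86.3 to 97.5) and the remodeler gene Chd2 (chr7:73441604-73442226, 85.5 to 96.6). Among matrix and adhesion genes these were Itga2b, the platelet integrin (chr11:102466889-102467449, 95.6 to 98.6), Itga7 (chr10:128938321-128939486, 96.4 to 98.3), Adamts15 (chr9:30905825-30906821, 95.2 to 98.5) and Itgb7 (chr15:102224255-102225352, 92.9 to 98.6). The cadherin list was led by Celsr3 (chr9:108831976-108832963, 96.2 to 98.8), Cdh22 (chr2:165111937-165112642, 92.3 to 97.1), Celsr2 (chr3:108401508-108402450, 90.0 to 97.2) and Cdh23 (chr10:60304736-60306097, 85.7 to 97.2). The zinc finger list was led by Zfp503 (chr14:21985879-21986465, 91.4 to 98.1), Zfp697 (chr3:98427172-98428660, 88.9 to 97.8), Zfp771 (chr7:127253858-127254969, 87.6 to 93.0) and Zfp710 (chr7:80088138-80088743, 81.3 to 96.3). The regions of Zfp503, Zfp697 and Zfp771 lay on their last and long coding exons and had summit windows of 71.5% to 73.5% G or C.

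Nonparenchymal marker genes also held coding exon regions. They were found at Pdgfrb, a stellate cell receptor gene (chr18:61067785-61068851, percentile 73.8 to 92.7), Reln (chr5:21896553-21897298, 70.0 to 93.2), and the endothelial scavenger receptor genes Stab1 (chr14:31159899-31161002, 67.0 to 89.5) and Stab2 (chr10:86878550-86879368, 69.2 to 79.7). The Stab2 promoter was listed in no library. A region inside a gene does not show that the gene was active.

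Of the 3122 genes, 2614 held 1 region, 418 held 2 and 90 held 3 or more. Hmcn2, which encodes the matrix protein hemicentin, held 8 regions between positions 31381021 and 31460608 of chromosome 2, with mean percentiles of 33.8 to 82.5, and 1 of them was present in all 8 libraries. Syne1, the gene of a giant nuclear envelope protein, held 7 (mean percentile 31.3 to 95.7, 4 in all 8 libraries). Ccdc162, Dst, Lama3, Lrp1, Mpdz and Unc13a held 5 each. Of the 5 regions of Lrp1, the lipoprotein and clearance receptor of hepatocytes, 4 were in all 8 libraries, whereas none of those of Lama3 and Unc13a were. Regions of 1 gene share its transcription and sequence and are not replicates.

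The share of kept intervals that fell on coding exon regions stayed near 5% at all times. It was 5.31% and 5.21% before PHx, 5.3% and 5.35% at 48 h, then 5.31% and 5.54% at 72 h, with 5.5% and 5.12% at 96 h. The PHx libraries ranged on both sides of the 0 h libraries. The mean difference between PHx and 0 h was 0.094 percentage points (exact permutation over the 28 choices of 2 of 8 libraries, two-sided, p = 0.571, smallest possible 0.0357). A single time point against 0 h could not reach a p under 0.333. With all distinct intervals in place of the 50000 strongest the difference was −0.319 (exact p = 0.143).

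The shares of coding exon regions that entered or left the kept intervals after PHx were read against those of all regions. Gained regions were those held by both libraries of a time point and neither 0 h library, and lost regions the reverse. The 3 comparisons share the 0 h libraries. At 48 h 124 coding exon regions were gained (3.31%, against 2.65% of all 73710 regions) and 139 were lost (3.71%, against 3.50%). At 72 h 109 were gained (2.91%, against 2.88%) and 94 lost (2.51%, against 2.74%). At 96 h 86 were gained (2.29%, against 2.23%) and 93 lost (2.48%, against 2.42%). Intronic regions were gained and lost at 2.94% and 4.22% at 48 h, and intergenic regions at 2.88% and 3.83%. Both 0 h libraries but no PHx library held 17 coding exon regions (0.453%, against 0.547%), and all 6 PHx but no 0 h library held 16 (0.426%, against 0.346%).

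These counts depended on rank and on single libraries. With 25000 intervals per library the gains were 102 at 48 h (5.1%, against 3.65% of all regions) and 104 at 72 h (5.2%, against 3.29%), so that the 72 h shares were no longer close. When presence needed 50% of a region covered, the gains at 72 h were 181 (4.82%, against 4.02%). Most such regions were still listed below the kept intervals: only 4 of the 124 gained and 5 of the 139 lost at 48 h were missing from the full lists of the other side, with 2 and 0 at 72 h and 1 and 2 at 96 h. Without 0 h replicate 1 the gained and lost counts at 48 h were 286 (7.76%, against 6.33% of all regions) and 289 (7.84%, against 8.86%). Without 48 h replicate 1 they were 285 (7.79%, against 7.92%) and 259 (7.08%, against 6.996%), since a single library then set a side of the comparison. Whether coding exon regions were gained or lost more often than all regions thus turned with the library left out. The last kept interval also differed in strength between libraries, with the lowest values in both 48 h libraries and 96 h replicate 2, and its part in the counts was not tested.

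**Figure D4:**
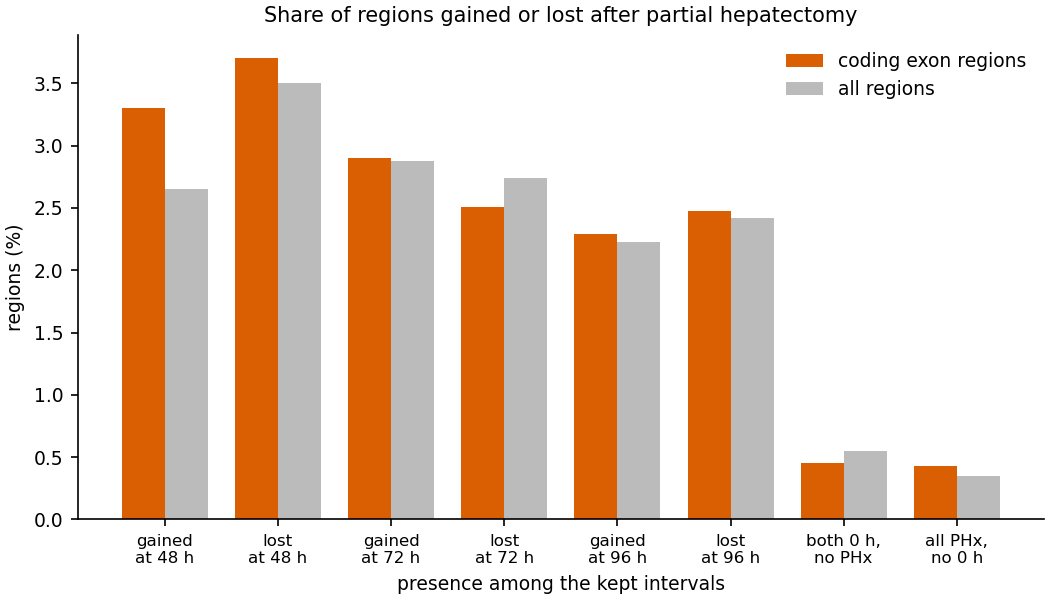
Percent of coding exon regions (orange) and of all regions (grey) gained or lost at 48, 72 and 96 h, present in both 0 h and no PHx library, or in all PHx and no 0 h library. The paired bars are close, with 3.31% against 2.65% for gains at 48 h as the widest gap.

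The 0 h ranks of the strongest regions gained at 48 h varied. The Depp1 region (chr6:116651843-116652115) lay inside the single coding exon of a FOXO target gene linked to autophagy. It ranked at percentile 84.2 and 87.8 at 48 h, at 50.9 in 0 h replicate 1 and at 58.8 in 72 h replicate 2, and was not listed in the other 4 libraries. Its fold enrichment was 4.94 and 4.83 at 48 h and 2.5 and 2.66 in the other libraries that listed it.

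The Tmem121 region (chr12:113187608-113188389), at the single coding exon of a membrane protein gene, ranked at 33.5 and 51.5 before PHx, 83.0 and 89.9 at 48 h, then 79.1 and 86.0 at 72 h, with 67.0 and 76.7 at 96 h. All 6 PHx values were above both 0 h values. Its fold enrichment was higher at 48 h by 1.17 ± 0.29 on the log2 scale (SE, limma, adjusted p = 0.302). The summit window has a further exact copy in the assembly.

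At Amn, whose product takes up vitamin B12 together with cubilin, an internal coding exon region (chr12:111275185-111275867) ranked at 41.0 and 41.1 before PHx, 80.2 and 81.4 at 48 h, then 71.4 and 81.3 at 72 h, with 73.1 and 57.3 at 96 h. The 0 h values were the lowest, and the region lay within 1 kb of a TSS in the wider set. At Psma6, which encodes a proteasome subunit, the region, also within 1 kb of such a TSS (chr12:55407873-55408703) held AP-1 letters and ranked at 50.6 and 4.7 before PHx, 84.3 and 81.4 at 48 h, then 53.1 and 74.0 at 72 h, with 55.5 and 28.3 at 96 h. The 2 0 h libraries differed widely. At Klk4, a serine protease gene (chr7:43883523-43884083), the values were 58.3 and 43.1 before PHx, 89.3 and 82.5 at 48 h, then 61.5 and 78.1 at 72 h, with 70.5 and 11.7 at 96 h.

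The strongest regions lost at 48 h came from the upper part of both 0 h lists. The Abca8a region (chr11:110037732-110038553), at internal coding exon 29 of 38 of an ABC transporter gene, ranked at 81.4 and 83.0 before PHx, 48.3 and 63.6 at 48 h, then 85.3 and 85.6 at 72 h, with 81.9 and 71.5 at 96 h. Its fold enrichment was 12.2 and 13.5 before PHx, 4.26 and 5.22 at 48 h, then 12.3 and 11.4 at 72 h, with 11.1 and 6.95 at 96 h. The 48 h values were the lowest on both scales, and 96 h replicate 2 came next.

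The Dock8 region (chr19:25089210-25090346), at the gene of a guanine nucleotide exchange factor of immune cells, ranked at 79.5 and 89.4 before PHx, 51.9 and 56.1 at 48 h, then 71.5 and 88.0 at 72 h, with 81.6 and 76.0 at 96 h. The Mgrn1 region (chr16:4907431-4907809), at an E3 ligase gene, ranked at 78.7 and 80.1 before PHx but 28.6 and 40.4 at 48 h. The Tymp region (chr15:89375047-89375642), at the thymidine phosphorylase gene, ranked at 77.9 and 81.0 before PHx but 5.48 and 61.6 at 48 h, with 64.8 to 87.5 later. In each of these the 48 h libraries lay below both 0 h libraries, as the definition of loss requires of presence.

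At 72 h the strongest gains were at Phc2, a Polycomb gene (chr4:128709415-128709723, percentile 51.1 and 40.4 at 0 h, 85.3 and 89.1 at 72 h), Synj1, a phosphoinositide phosphatase gene (chr16:90988014-90988353, 58.8 and 47.9 at 0 h, 81.7 and 88.2 at 72 h), and the lipase-related gene Pnliprp2 (chr19:58762839-58763493, 58.7 and 47.8 at 0 h, 80.6 and 94.4 at 72 h). The strongest losses were at 9130401M01Rik (chr15:58021442-58023190, 78.0 and 78.3 at 0 h, 58.6 and 67.1 at 72 h), the lymphotoxin receptor gene Ltbr (chr6:125309299-125310096, 77.7 and 83.0, then 50.7 and 64.8) and Exph5 (chr9:53340432-53341487, 77.6 and 85.2, then 62.3 and 61.6). The Phc2 and 9130401M01Rik windows each have a further exact copy in the assembly.

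At 96 h gains were led by Gbe1, Arid1a and Pex7. The Arid1a region (chr4:133680147-133680818), on the last coding exon of a subunit of the BAF chromatin remodeler, ranked at 52.0 and 14.2 before PHx, 64.3 and 69.9 at 48 h, then 75.5 and 85.5 at 72 h, with 84.4 and 87.3 at 96 h. Its log2 fold enrichment relative to 0 h was 0.91 at 48 h, then 1.18 at 72 h and then 1.48 at 96 h (each ± 0.28, SE), and none passed the test (limma, adjusted p = 0.329, 0.412 and 0.441). The 0 h libraries differed widely. The Gbe1 region (chr16:70568329-70569095), at the last coding exon of the glycogen branching enzyme gene, held CTCF, AP-1 and STAT letters and ranked at 58.8 and 46.0 at 0 h and at 74.6 to 88.0 in the 6 PHx libraries. The Pex7 region (chr10:19894074-19894462), at the gene of a peroxisomal import receptor, ranked at 48.3 and 44.6 before PHx, 59.8 and 81.7 at 48 h, then 76.1 and 58.0 at 72 h, with 82.7 and 83.0 at 96 h. Losses were led by Anp32a (chr9:62374702-62375165, 79.0 and 90.5 at 0 h, 59.5 and 48.4 at 96 h), Gmeb2 (chr2:181277721-181278426, 77.4 and 78.6 at 0 h, 56.4 and not listed at 96 h) and Abcc6, a hepatocyte transporter gene (chr7:46028697-46029194, 82.8 and 77.2 at 0 h, 61.6 and 49.2 at 96 h).

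Regions in every PHx library and no 0 h library also included Cog3, a Golgi tether gene (chr14:75722067-75722542). It ranked at 57.0 and 48.1 before PHx, 89.5 and 77.3 at 48 h, then 72.5 and 72.6 at 72 h, with 85.8 and 71.4 at 96 h. Upk3bl (chr5:136061314-136061931) ranked at 58.5 and 25.9 at 0 h and 67.8 to 78.0 after PHx, and Tldc2 (chr2:157095110-157095676) at 56.8 and 26.6, then 65.9 to 88.0. In the reverse set was Slc27a5, whose product activates bile acids for conjugation (chr7:12995872-12996373). It ranked at 67.3 and 71.5 before PHx, 7.09 and 47.7 at 48 h, then 51.9 and 35.5 at 72 h, and 28.9 in 96 h replicate 1, and was not listed in 96 h replicate 2. This region lay 1777 bp from the nearest TSS, and within 1 kb of a TSS in the wider set.

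Other regions among the 17 held by both 0 h libraries alone were at Dhx58, an RNA sensor gene (chr11:100694992-100695347, percentile 70.0 and 74.4 at 0 h, 28.4 to 62.5 after PHx), 4930402H24Rik (chr2:130813610-130814343, 65.4 and 71.0, then 51.5 to 62.7), the carotenoid-cleaving enzyme gene Bco2 (chr9:50533380-50533993, 67.1 and 63.1, then at most 57.2 and not listed in 48 h replicate 1 and 72 h replicate 1) and the germline gene Piwil2 (chr14:70390097-70390626, 62.5 and 63.9, then 14.3 to 49.5). At these 4 genes the 0 h values lay above all PHx values, with the smallest gap at 4930402H24Rik. This was not so for the whole set: the Pzp region ranked at 61.0 and 61.3 at 0 h but at 65.7 in 72 h replicate 2 and 63.6 in 96 h replicate 1, below the kept intervals of those larger lists.

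**Figure D5:**
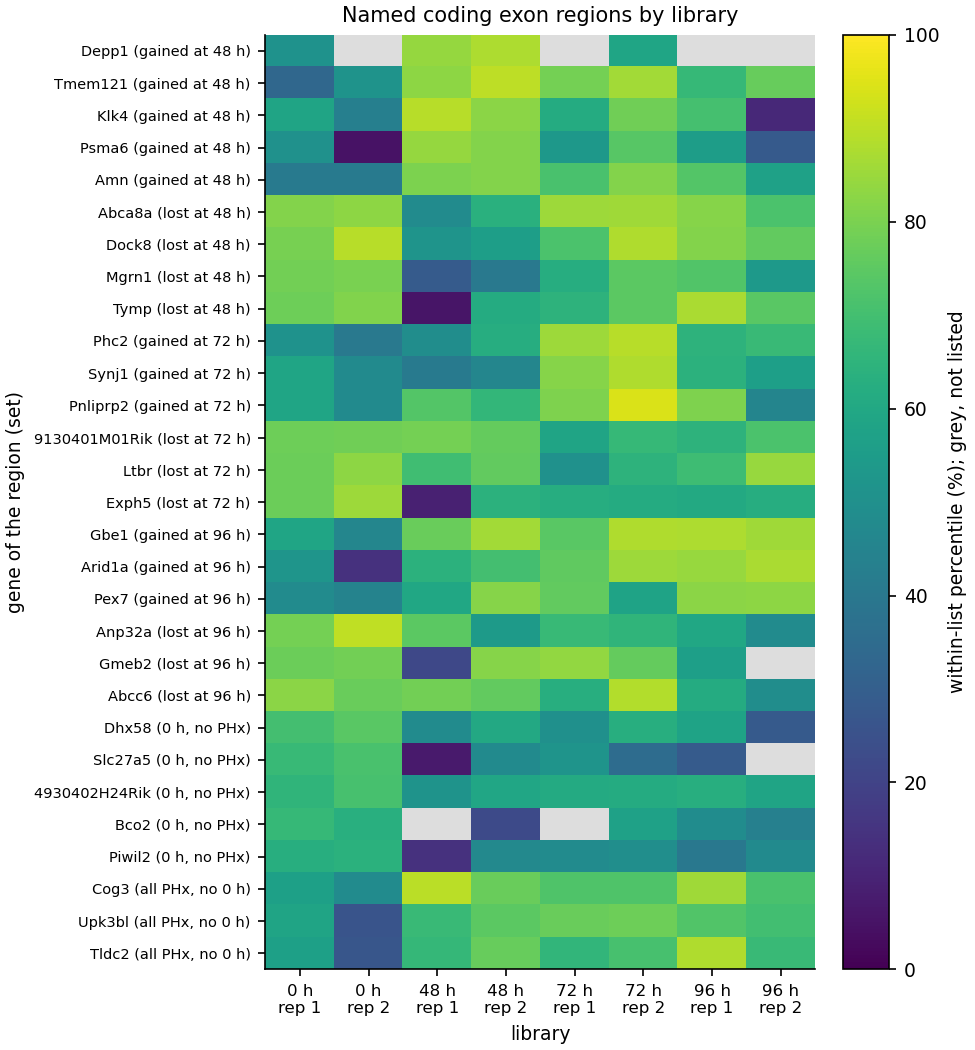
Within-list percentile (colour, 0 to 100) of named coding exon regions that were gained, lost, or separated 0 h from all PHx libraries (rows), in each of the 8 libraries (columns), with grey where a region was not listed. Abca8a is lowest at 48 h, while Arid1a ranks from 64.3 up in every PHx library and at 52.0 and 14.2 at 0 h.

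Developmental regulators had gains and no losses. Of the 47 coding exon regions of developmental regulators, 5 were gained at 48 h (10.6%, against 3.31% of all coding exon regions), 3 at 72 h (6.38%, against 2.91%) and 3 at 96 h (6.38%, against 2.29%). At each time 0 were lost, against 3.71%, 2.51% and 2.48% of all coding exon regions, and 47 regions are few to set against these shares. The genes, named here because the counts are small and after their values were seen, included Sox17, Wnt9a, Hoxb8 and Tbx20 at 48 h, Hoxb8, Nkx6-1 and Tbx20 at 72 h, and Tbx21, Nkx6-1 and Hoxa3 at 96 h. Tbx20, a heart T-box gene, ranked at percentile 44.2 and 25.2 before PHx, 78.1 and 69.9 at 48 h, then 67.6 and 80.1 at 72 h, and 71.6 in 96 h replicate 1, and was not listed in 96 h replicate 2. Hoxb8 ranked at 56.3 in 0 h replicate 1, was not listed in 0 h replicate 2, and ranked at 65.3 and 65.1 at 48 h, then 75.3 and 75.6 at 72 h, with 81.4 and 46.6 at 96 h.

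Metabolism and transport genes had 1 gained and 6 lost among 114 regions at 48 h, then 1 and 4 at 72 h, with 0 and 2 at 96 h. The gained shares were 0.877%, 0.877% and 0%, against 3.31%, 2.91% and 2.29% of all coding exon regions. The lost shares were 5.26%, 3.51% and 1.75%, against 3.71%, 2.51% and 2.48%. The 6 lost included those at Abca8a, Cyp4f17, Cyp4f15, Slc27a5 and Slc25a42. The Cyp4f17 region ranked at 66.5 and 75.6 before PHx but 32.8 and 60.1 at 48 h. The 1 gained was at Slc22a5, the carnitine transporter gene. Of the 23 regions of plasma protein genes, 1 was lost at each time point, the same Pzp region (4.35%), and 0 were gained. The 7 regions of nonparenchymal markers had 0 gained and 0 lost, a count too small to set against these shares.

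Zinc finger genes, with 31 regions, had the highest share of gains at 48 h among the lists. They had 5 gained (Zfp277, Zfp385a, Zscan10, Zfp106 and Zbtb17; 16.1%) and 1 lost (Zfp335; 3.23%) at 48 h, against 3.31% and 3.71% of all coding exon regions. At 72 h 1 was gained (3.23%, against 2.91%) and 0 were lost, and at 96 h 2 were gained (6.45%, against 2.29%) and 1 lost (3.23%, against 2.48%). Chromatin regulators, with 44 regions, had 4 gained (Tet1, Arid1a, Smarcd3 and Smarca5; 9.09%) and 3 lost (Bptf, Setdb2 and Ezh2; 6.82%) at 48 h, then 1 and 1 at 72 h (2.27% each, against 2.91% and 2.51%). At 96 h their balance was the other way, with 1 gained (Arid1a; 2.27%, against 2.29%) and 4 lost (Bptf, Setdb2, Ezh2 and Kdm6a; 9.09%, against 2.48%). Matrix genes, with 75 regions, had 3 gained (Adamtsl5, Col16a1 and Adamts8; 4%) and 1 lost (Lama3; 1.33%) at 48 h, and 2 gained (2.67%) and 1 lost (1.33%) at each later time. The 13 regions of cell cycle genes had 1 gained (Cenpf; 7.69%) and 0 lost at 48 h, then 0 gained and 1 lost (Rrm2; 7.69%, against 2.51%) at 72 h, with 0 and 0 at 96 h. The 11 regions of nuclear receptors had 1 gained (Nr5a1; 9.09%) and 0 lost at 48 h, then 2 gained (Nr5a1 and Esr1; 18.2%, against 2.91% of all coding exon regions) and 1 lost (a second Esr1 region; 9.09%, against 2.51%) at 72 h. At 96 h 0 were gained and 2 lost (a second Nr2c1 region, not the one given above, and Pparg; 18.2%, against 2.48%). Of the 20 regions of cadherins, 1 was gained at 96 h (5%, against 2.29%) and 0 were lost. These counts are small, and no list was tested.

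CTCF letters were more frequent in gained than in lost coding exon regions at each time. They were found in 19 of 124 gained (15.3%) and 5 of 139 lost regions (3.6%) at 48 h, in 14 of 109 (12.8%) and 2 of 94 (2.13%) at 72 h, and in 11 of 86 (12.8%) and 6 of 93 (6.45%) at 96 h. Over all regions in these sets the shares were 12.3% of gained and 2.25% of lost at 48 h, then 9.7% against 3.96% for 72 h, with 10.3% against 4.37% for 96 h, so the same split was seen over all regions. SP/KLF letters were found in 25 of 124 gained and 11 of 139 lost coding exon regions at 48 h (20.2% and 7.91%), against 10.0% and 7.49% of all gained and lost regions. FOXA letters were found in 1 gained and 7 lost (0.806% and 5.04%, against 3.23% and 6.71% of all such regions), and AP-1 letters in 9 and 8 (7.26% and 5.76%, against 11.3% and 6.87%). These counts carry no test, and the time points share the 0 h libraries.

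No coding exon region passed the test of fold enrichment at any time point. Of the 3752 regions, 2953 (78.7%) had an interval in all 8 full lists and entered the fit of log2 fold enrichment with 55123 regions in all. With limma, 0 were called higher and 0 lower at 48, 72 and 96 h (adjusted p under 0.05 and a log2 difference over 0.5), as were 0 of all regions (0%). The smallest adjusted p among coding exon regions was 0.299 at 48 h, 0.38 at 72 h and 0.441 at 96 h. At an unadjusted p under 0.05, 223 were higher (7.55%, against 6.18% of all tested) and 122 lower (4.13%, against 4.25%) at 48 h, 148 higher (5.01%, against 4.22%) and 55 lower (1.86%, against 2.74%) at 72 h, and 124 higher (4.2%, against 3.83%) and 69 lower (2.34%, against 2.74%) at 96 h. Between later time points, 113 were higher (3.83%, against 3.16%) and 101 lower (3.42%, against 3.55%) at 72 h than at 48 h, 102 higher (3.45%, against 3.37%) and 121 lower (4.1%, against 3.94%) at 96 h than at 48 h, and 41 higher (1.39%, against 1.91%) and 78 lower (2.64%, against 2.04%) at 96 h than at 72 h. The median log2 difference of coding exon regions was 0.05 at 48 h and 0.02 at 72 and 96 h, against 0.02, −0.02 and 0.01 over all regions. Regions that dropped out of a list were left out of this fit. When they were instead set to a fold enrichment of 1, limma called 7 coding exon regions at 48 h. Among them D10Wsu102e, Nol6, Nelfa, Smarca5 and a second Cdh23 region, not the one given above, were higher, and Rcor3 was lower. Limma called 1 at 72 h (Krt28, higher) and 0 at 96 h. Each called region was unlisted in both libraries of a group. The calls at 48 and 72 h were 0.187% and 0.0267% of coding exon regions, against 0.267% and 0.0516% of all 73710 regions (197 and 38 called).

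The smallest p values at 48 h belonged to Psma6, Tet1 and Col16a1. The log2 difference was 1.61 ± 0.35 (SE) at Psma6, 1.46 ± 0.33 at Tet1, the gene of a methylcytosine dioxygenase (chr10:62832631-62833726), and 1.02 ± 0.24 at the collagen gene Col16a1 (chr4:130066719-130067266), each with an adjusted p of 0.299 (limma). Tet1 had a fold enrichment of 3.42 and 3.8 before PHx, 6.04 and 9.32 at 48 h, then 3.72 and 6.93 at 72 h, with 5.09 and 3.27 at 96 h. The 48 h values overlapped those at 72 h. Col16a1 had 4.27 and 3.8 before PHx, 5.68 and 6.71 at 48 h, then 8.01 and 7.15 at 72 h, with 7.32 and 6.13 at 96 h, so that all 6 PHx libraries were above both 0 h libraries.

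The regions nearest the thresholds of the rule were as follows. Hjurp (chr1:88269576-88270251) and Tmem63a (chr1:180974284-180974905) entered with 50 bp of coding overlap and mean percentiles (over 8 libraries, unlisted counted as 0) of 84.2 and 81.7, while Map2k3 and Sorbs3 stayed out with 49 bp and mean percentiles of 71.0 and 76.9. Nat14, at 1004 bp from a TSS, and Bmpr2, at 1021 bp, entered with mean percentiles of 88.2 and 64.2, while Acvr1b at 1000 bp (81.0) and Cela1 at 994 bp (41.4) stayed out. In all, 139 coding exon regions had 50 to 59 bp of coding overlap, 126 regions had 40 to 49 bp, and 6955 regions with at least 50 bp of coding overlap lay within 1 kb of a TSS.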

How the data were processed

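ATAC-Seq peak lists of 8 hepatocyte libraries (0, 48, 72 and 96 h, 2 each) were used. The authors trimmed reads, aligned them to mm10 with Bowtie2, removed PCR duplicates and called peaks with MACS2. The deposited columns hold fold enrichment (a ratio over local background), −log10 p and a display score, which was not used. Depth is unknown. Intervals of a list were reduced to distinct ones and ranked by −log10 p, and the 50000 strongest of each list were merged with bedtools 2.31.1. Starts (77161) and coding segments (213784) came from the basic GENCODE mm10 annotation, and sequences from the reference genome of the same build, GRCm38. Classes were compared within libraries by an exact sign-flip test, with Benjamini-Hochberg adjustment. Log2 fold enrichment, centred on each library's median, was tested with limma 3.58.1 (R 4.3.3) on regions listed in all 8 libraries. Other steps used Python 3.11.15, numpy 2.4.6, pandas 2.3.3, pyfaidx 0.9.0.4 and matplotlib 3.10.9. Scripts were tested on simulated data. Named regions were the 5 strongest by mean percentile, the strongest 3 to 5 of each gained or lost set, the 3 with the smallest p at 48 h, the genes with most regions (ties included), the strongest of each gene list (up to 4), the widest, that with most coding bases, and those nearest the thresholds. The members and lists were chosen with earlier results of these data known. Alternatives covered the number of intervals kept, the member rule, the motif window, unlisted regions, normalization, a replicate block and each library left out. Further replicates the study describes were not analysed here. Some named regions and genes are not reported here.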

Additional observations from a re-analysis of the deposited data

Results flagged for a closer look

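At 4 of the 83 named coding exon regions, both libraries of one time point lay on one side of the 0 h libraries and both of another time point on the other side, in 5 pairs of time points. The difference in percentile itself was not tested. Log2 fold enrichment, a different scale, was compared between the time points with limma. At Abca8a the mean percentile was 82.2 before PHx, 55.9 at 48 h and then 85.5 at 72 h, a gap of 29.5 between 48 and 72 h, with a log2 difference in fold enrichment of 0.99 ± 0.26 (SE, limma, adjusted p = 0.636). At Synj1 it was 53.4 before PHx, 43.4 at 48 h and then 84.9 at 72 h, a gap of 41.5, with a log2 difference of 1.28 ± 0.25 (SE, limma, adjusted p = 0.609). At Stab2 it was 75.3 before PHx, 70.3 at 48 h and then 79.1 at 96 h, a gap of 8.8, with a log2 difference of 0.24 ± 0.25 (SE, limma, adjusted p = 0.872). At Hjurp it was 80.2 before PHx and 78.9 at 48 h, against 90.3 at 72 h with 87.4 at 96 h. The gap was 11.4 between 48 and 72 h (log2 difference 0.39 ± 0.25, SE, limma, adjusted p = 0.841) and 8.46 between 48 and 96 h (0.40 ± 0.25, SE, limma, adjusted p = 0.764).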

How the results depend on the processing

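Coverage, GC content and CpG ratio kept their direction and their side of the threshold under each alternative in which they were computed. Neither they nor the motif shares were computed with the wider set of starts. The difference in percentile kept its direction, but rank had set which intervals were kept. Of the 7 motifs higher than in introns, NRF1 did not pass with 400 bp windows (6 higher, exact adjusted p = 0.445), nor with 25000 intervals (0.0703), where HNF4 passed instead (0.317, exact adjusted p = 0.00977). With 25000 intervals per library there were 1999 coding exon regions (4.93% of regions), with 91 lost at 48 h, 62 lost at 72 h and 10 in all PHx and no 0 h library, and with 102 gained at 48 h (5.1%, against 3.65% of regions) and 104 at 72 h (5.2%, against 3.29%). With all distinct intervals there were 13669 (4.33%), with 263 lost at 48 h (1.92%, against 1.70% of regions) and 397 gained at 72 h (2.90%, against 2.81%). At 96 h 229 were gained (1.68%, against 1.56%) and 146 lost (1.07%, against 0.940%), and 31 were in both 0 h libraries alone (0.227%, against 0.230%). The PHx minus 0 h share turned to −0.319 (exact p = 0.143). With 200 bp around each summit there were 2341 (2.76%), with 84 lost at 48 h (3.59%, against 3.93% of regions) and 72 gained at 72 h (3.08%, against 3.01%). At 96 h 55 were gained (2.35%, against 2.39%) and 55 lost (2.35%, against 2.63%), and 10 were in both 0 h libraries alone (0.427%, against 0.595%). With 100 bp of overlap (3.74%) 57 were lost at 96 h (2.07%, against 2.42% of regions) and 11 were in both 0 h libraries alone (0.399%, against 0.547%). With the summit inside a coding segment there were 1261 (1.71%). At 48 h 51 were gained (4.04%, against 2.65% of regions) and 41 lost (3.25%, against 3.50%). At 72 h 44 were gained (3.49%, against 2.88%) and 37 lost (2.93%, against 2.74%). At 96 h 31 were gained (2.46%, against 2.23%) and 31 lost (2.46%, against 2.42%). Both 0 h libraries alone held 4 (0.317%, against 0.547%) and all PHx libraries alone 8 (0.634%, against 0.346%). In this setting the CTCF difference from introns turned to −0.255 (exact adjusted p = 0.234) and that of NRF1 to −0.0179, while that of HNF4 was 0.561 (exact adjusted p = 0.00873). A 2 kb TSS distance gave 4.69%. The wider set of starts, added after the data were seen, gave 3.71%, 60 lost at 72 h and 10 in both 0 h libraries alone. When presence needed 50% of a region covered, 181 were gained at 72 h (4.82%, against 4.02% of regions) and 143 lost at 96 h (3.81%, against 3.58%). In that setting 28 were in both 0 h libraries alone (0.746%, against 0.765%). When absence meant absence from the full lists, 4 were gained and 5 lost at 48 h, then 2 and 0 for 72 h, then 1 and 2 for 96 h, and 0 and 0 separated 0 h from PHx. Over all 73710 regions these counts were 50 and 94, then 40 and 7, then 21 and 19, and 0 and 0. With unlisted regions at a fold enrichment of 1, limma called 7 at 48 h and 1 at 72 h, of 197 and 38 called among 73710 regions. The cause of these changes was not tested, beyond the smaller or larger number of regions that a rule admits.

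Leaving out 1 library gave 3603 to 3688 regions, a PHx minus 0 h share of 0.0462 to 0.155, and 0 limma calls at each time. Gained and lost counts ranged from 121 to 286 and 136 to 313 at 48 h, then 106 to 308 and 93 to 254 for 72 h, then 84 to 273 and 91 to 307 for 96 h, with 21 to 86 in both 0 h libraries alone and 19 to 98 in all PHx libraries alone. The high counts came when a library of a compared group was left out, since 1 library then set that group. Gains and losses at 48 h were 286 and 289 when 0 h replicate 1 was left out, 210 and 221 with 0 h replicate 2 out, 285 and 259 without 48 h replicate 1, and 271 and 313 with 48 h replicate 2 out. The share of coding exon regions gained at 48 h was above that of all regions without either 0 h library (7.76% against 6.33%, 5.79% against 4.67%) and below it without either 48 h library (7.79% against 7.92%, 7.47% against 8.10%), and the lost shares ran the other way (7.84% against 8.86%, 6.09% against 6.78%, then 7.08% against 6.996%, 8.63% against 8.24%). Gained and lost counts at 72 h were 298 and 254, 202 and 163 without the same 0 h libraries, 308 and 206 without 72 h replicate 1, and 208 and 203 with 72 h replicate 2 out. In that order the gained shares were 8.08% (against 6.97% of all regions), 5.57% (5.02%), 8.42% (7.87%) and 5.77% (6.53%). The lost shares were 6.89% (8.14%), 4.49% (5.93%), 5.63% (6.43%) and 5.63% (5.64%). Gained and lost counts at 96 h were 242 and 230, 172 and 176 without the same 0 h libraries, 232 and 307 without 96 h replicate 1, and 273 and 187 with 96 h replicate 2 out. In that order the gained shares were 6.56% (against 5.87% of all regions), 4.74% (4.17%), 6.40% (7.88%) and 7.44% (6.92%). The lost shares were 6.24% (7.48%), 4.85% (5.44%), 8.47% (7.04%) and 5.10% (5.90%). The HNF4 difference from introns ranged from −0.0261 (without 72 h replicate 2, exact adjusted p = 0.641) to 0.116. Same-numbered libraries showed little shared deviation (6 pairs, correlation −0.0589 to 0.128, 1 over 0.1). The labels do not say whether the numbers pair the samples, and low correlations cannot exclude it. With the replicate block 0 coding exon regions were called at 48, 72 and 96 h (limma, smallest adjusted p = 0.322, 0.404 and 0.52).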
